A study of Thermothelomyces thermophilus with 4 samples.

Results

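Myceliophthora thermophila, also called Thermothelomyces thermophilus, is a mould that grows in hot compost. Its transcripts were compared between growth on 2 cereal straws, oat and triticale, and growth on flax straw, all at 24 h. The comparison used 3 of the 4 libraries of the study, which were chosen by their labelled culture time. The remaining library, from canola straw, comes from a 30 h culture and had no part in the rule that chose genes. Spores were grown in a shaken (150 rpm) Trametes Defined Medium at 45 °C with 2% straw as the carbon source, and poly(A) RNA of mycelium was sequenced at an early growth stage. The labels give no strain, and all cultures are described alike apart from straw and time. Each straw is represented by 1 library with no replicate culture, so no difference below has a replicate check or a p-value. Oat and triticale are different straws and are not replicates of each other.

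This fungus lives on decaying plant matter and secretes enzymes that split cellulose, xylan and pectin into sugars. Some of these enzymes hydrolyse the chains, and others, such as lytic polysaccharide monooxygenases, cut them by oxidation with electrons that cellobiose dehydrogenase can supply. The cell walls of cereal straws are of the grass type, in which cellulose is embedded in arabinoxylan with ester-linked ferulic acid. Flax is a dicot grown for its bast fibres, and dicot walls generally hold more pectin and xyloglucan.

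The 3 libraries held 7308467 reads assigned to genes on oat, 6495371 on triticale and 7955444 on flax, recovered from the deposited FPKM values (reads scaled to the length of the gene model and to the assigned reads of the library). The canola library held 7977329. Of 9110 gene models, 8205 had a mean of at least 1 FPKM over the 3 libraries and were compared. For a model of the median length, 1733 bases, a count of 0 allows a level of up to 0.237 FPKM on oat, 0.267 on triticale and 0.218 on flax. Over the compared genes the median log2 ratio to flax was -0.04 on oat and -0.19 on triticale. The log2 ratio of triticale to flax was lower for longer genes (Spearman's rho = -0.208 across genes, which are not independent), while that of oat to flax did not (rho = -0.00362). The table and the reference annotation hold no annotated markers of mycelium or spores, so the tissue label was not checked. In such bulk libraries fewer cells expressing a gene and less RNA per cell cannot be told apart.

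A gene counted as higher on the cereal straws when the lower of its oat and triticale values was at least 2-fold above flax, and as lower when the higher of the 2 was at least 2-fold below flax, both on the scale of FPKM + 1. By this rule 279 genes were higher on both cereal straws, which is 3.40% of the compared genes, and 369 were lower on both, which is 4.50%. No gene was at least 2-fold above flax on one cereal straw and at least 2-fold below it on the other. Both ratios use the same flax value, so agreement in direction is partly built in. At 4-fold 74 genes (0.902%) were higher and 53 (0.646%) lower. The higher genes reached wider gaps: 26 were at least 8-fold apart and 3 at least 100-fold, whereas 7 of the lower genes were at least 8-fold apart and the widest gap was 20.0-fold. The gap is the ratio between flax and the nearer cereal straw on the scale of FPKM + 1.

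The split between the directions depended on scaling. With every library shifted to the same median, 341 genes were higher and 298 lower, and with upper-quartile scaling 296 and 331. With each library's trends with gene length and expression level removed the counts were 335 and 313. The 2 cereal straws also contributed unequally. Oat alone had 430 genes at least 2-fold above flax (5.24%) and 440 below it (5.36%), and triticale alone had 437 above (5.33%) and 1802 below (22.0%). Of the 440 genes lower on oat, 369 were lower on triticale too, an overlap that shares the flax library.

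**Figure D1:**
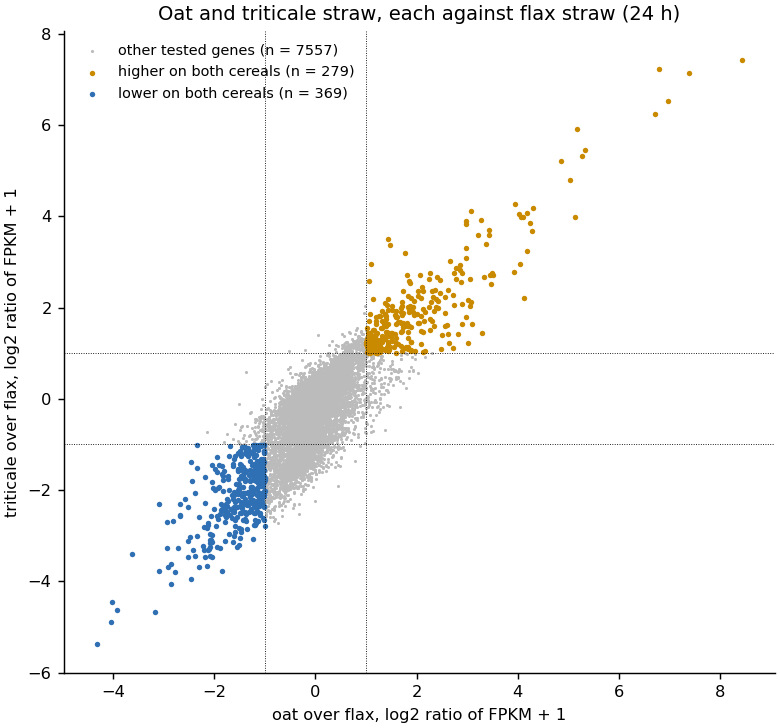
Each point is 1 of the 8205 compared genes, with the log2 ratio of oat to flax on the x axis and of triticale to flax on the y axis, both of FPKM + 1. Dotted lines mark 2-fold. The 279 higher genes (upper right) extend to wider ratios than the 369 lower genes (lower left), and the cloud of the other genes lies lower on the triticale axis than on the oat axis.

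The 279 higher genes included many of the most abundant transcripts of the cereal cultures. They made up 20 of the 100 genes with the highest FPKM on oat and 15 of 100 on triticale, against 1 of 100 on flax. Their reads made up 8.88% of the oat library, 8.45% of the triticale library and 1.80% of the flax library. The 369 lower genes took 9.41% of reads on flax and 2.98% and 2.36% on oat and triticale, and made up 13 of the 100 genes with the highest FPKM on flax and 1 of 100 on each cereal straw. Median FPKM of the higher genes was 37.9 on oat, 36.7 on triticale and 8.90 on flax. Median FPKM of the lower genes was 10.2 on oat, 5.94 on triticale and 32.8 on flax. These sets were chosen on the same libraries, so the shares and levels describe them and are not a test.

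Only 6 gene models carry a symbol in the reference annotation, and 3 of these were called. The transcript of cbdA (MYCTH_111388), which encodes cellobiose dehydrogenase, was higher on both cereal straws. It had 807 FPKM on oat, 498 on triticale and only 119 in the flax library, with 95% counting intervals of 795 to 818, 489 to 508 and 115 to 123. That is 6.77 times the flax value on oat (interval 6.52 to 7.04) and 4.18 times on triticale (4.01 to 4.35). In the order of FPKM values within a library, cbdA stood at position 115 on oat, 222 on triticale and 840 on flax.

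Both cat1 and phy1 had lower transcript levels on the cereal straws. The gene cat1 (MYCTH_80916) encodes a catalase, which breaks down hydrogen peroxide. It had 135 FPKM on flax (131 to 140), against 14.1 on oat (12.5 to 15.8) and 4.32 on triticale (3.43 to 5.38). Flax was 9.59 times as high as oat (8.51 to 10.9) and 31.3 times as high as triticale (25.1 to 39.6). The size of the cat1 difference thus depended on which cereal library was used, and triticale lay lower against flax over all compared genes too. The gene phy1 (MYCTH_104551) encodes a phytase, which releases phosphate from phytate. It had 11.9 FPKM on flax (10.0 to 14.0), 3.72 on oat (2.68 to 5.03) and 1.30 on triticale (0.690 to 2.22), from 146, 42 and 13 reads. Flax was 3.19 times as high as oat (2.25 to 4.62) and 9.17 times as high as triticale (5.20 to 17.6).

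The other symbol genes were not called. The transcript of ganA (MYCTH_43163), for a galactanase that acts on the galactan side chains of pectin, had 142 FPKM on oat, 131 on triticale and 91.5 on flax. Both cereal values lay above flax, at 1.56 times (1.42 to 1.70) and 1.43 times (1.30 to 1.57). The transcript of gla1 (MYCTH_72393), for glucoamylase, which releases glucose from starch, had 36.9 FPKM on oat, 20.3 on triticale and 22.7 on flax. Oat was 1.63 times flax (1.44 to 1.84), and triticale was within counting error of flax (0.895 times, 0.772 to 1.04). The laccase gene lcc1 (MYCTH_51627), whose product oxidises phenols, had 2 reads on oat, 1 on triticale and 2 on flax, and no difference was detectable at this depth.

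**Figure D2:**
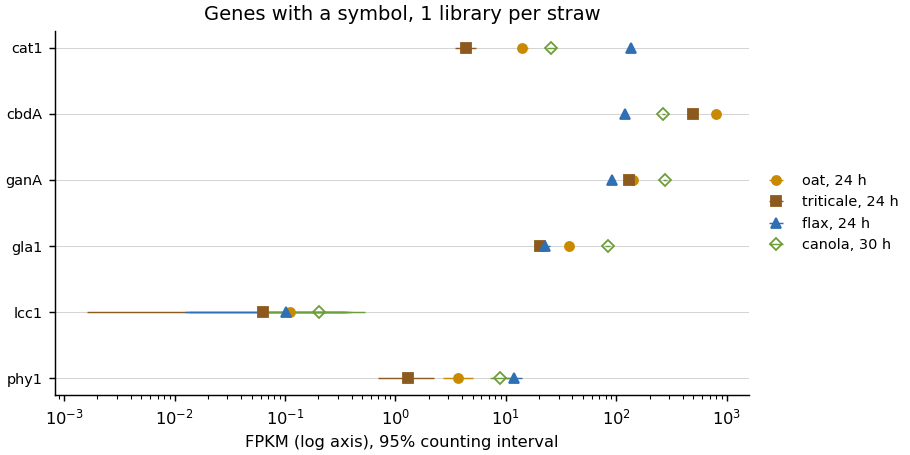
FPKM (log axis) of the 6 genes with a symbol in the 4 libraries, 1 point per library with its 95% counting interval. The cereal points of cbdA lie to the right of flax and those of cat1 and phy1 to the left, and the intervals of lcc1 overlap in all libraries.

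MYCTH_39279 had the widest gap of the higher genes, 171-fold. This gene had 1210 FPKM on oat and 596 on triticale, positions 57 and 192 within their libraries, and 2.49 FPKM on flax (1.52 to 3.84, from 20 reads), position 7658. Oat exceeded flax 486-fold (315 to 797) and triticale 240-fold (155 to 393) in FPKM. MYCTH_54058 followed with 888 FPKM on oat, 749 on triticale and 4.34 on flax, and MYCTH_49824 with 2720, 3656 and 23.4 FPKM in the same order. These 3 genes were thus among the 200 most abundant transcripts on both cereal straws and at position 3904 or beyond on flax.

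The next genes by gap were lower in abundance on flax to differing degrees. MYCTH_43727 had 282 FPKM on oat, 206 on triticale and 1.25 on flax (0.600 to 2.30, from 10 reads). MYCTH_55982 had 1364, 990 and 12 FPKM in that order. MYCTH_2066457 had 865, 934 and 20.4 FPKM, and the gaps of these genes were 91.8-fold, 76.4-fold and 40.5-fold. MYCTH_52904 had 225 FPKM on oat, 235 on triticale and 4.87 on flax, and MYCTH_2309660 had 216, 365 and 5.07 FPKM. MYCTH_96478 was at a similar level, with 231, 197 and 6.11 FPKM.

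Among the 12 widest genes, those with the highest level on flax were still far below the cereal straws. MYCTH_109444 had 3178 FPKM on oat and 4043 on triticale, positions 13 and 11, against 109 on flax. MYCTH_89603 had 2185, 1989 and 109 FPKM in that order, and MYCTH_2313146 had 1205, 1116 and 65.2. Over the 12 genes the 2 cereal straws differed from each other by 1.05 to 2.03 times, and oat was the higher in 7. The 12 gene models were 785 to 1410 bases long, with a median of 1036, against 1797 for all compared genes.

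**Figure D3:**
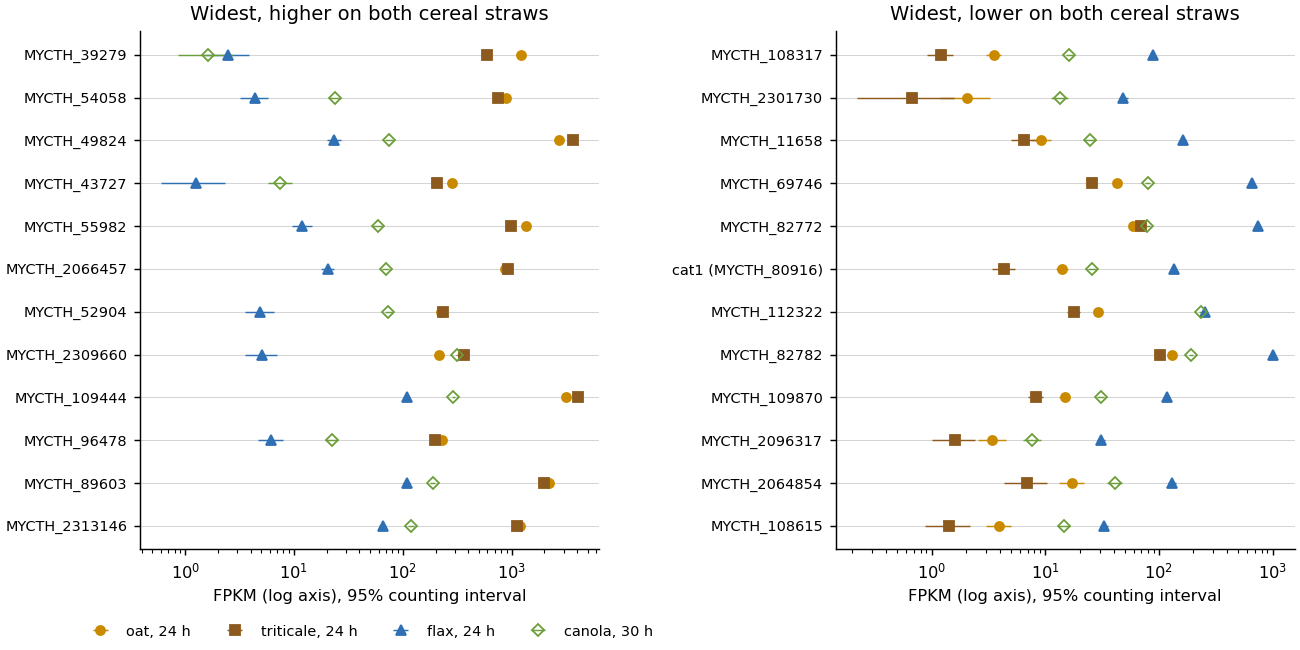
FPKM (log axis) with 95% counting intervals of the 12 genes with the widest gap in each direction where the higher side reached 10 FPKM or more, 1 point per library. On the left the 2 cereal points lie together, far to the right of flax. On the right flax lies highest, and oat is above triticale in 11 of the 12 genes.

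The higher genes with the most reads were not all among those with the widest gaps. MYCTH_109444, MYCTH_2313501, MYCTH_110651, MYCTH_109566 and MYCTH_85556 together took 2.19% of reads on oat, 2.01% on triticale and 0.321% on flax. MYCTH_85556 had 3481 FPKM on oat, 3527 on triticale and 212 on flax, an equal level on the cereal straws within counting error (oat to triticale 0.987, interval 0.970 to 1.004). MYCTH_110651 had 2193 FPKM on oat, 1967 on triticale and 450 on flax. In MYCTH_109566 oat and triticale stood apart, with 2567 and 1323 FPKM against 434 on flax. MYCTH_2313501 is the longest compared model, with 41976 bases, and had 104 FPKM on oat, 102 on triticale and 26.5 on flax.

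On the flax side the widest gap was 20.0-fold, at MYCTH_108317, with 89.5 FPKM on flax (87.1 to 92.0), 3.52 on oat (3.03 to 4.06) and 1.20 on triticale (0.905 to 1.56). MYCTH_2301730 had 48.7 FPKM on flax, 2.04 on oat and 0.674 on triticale, the last from 5 reads. MYCTH_11658 had 164, 9.18 and 6.52 FPKM in the same order. Flax exceeded oat 25.4-fold (22.0 to 29.6), 23.9-fold (14.7 to 41.4) and 17.9-fold (14.6 to 22.2) in these genes. At a higher level, MYCTH_69746 had 659 FPKM on flax, 42.5 on oat and 25.8 on triticale, and MYCTH_82772 had 738, 58.8 and 69.2. MYCTH_82782 had 1007 FPKM on flax, which was position 46 in that library, against 130 on oat and 103 on triticale.

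The rest of the 12 widest genes on the flax side included cat1, in sixth place. MYCTH_112322 had 255 FPKM on flax, 29.2 on oat and 17.8 on triticale. MYCTH_109870 had 117, 14.8 and 8.22 FPKM in that order, and MYCTH_2064854 had 131, 17.2 and 6.88. MYCTH_2096317 and MYCTH_108615 were at lower levels, with 30.8 and 32.8 FPKM on flax, 3.41 and 3.92 on oat and 1.59 and 1.43 on triticale. In 11 of these 12 genes oat was above triticale, by up to 3.27 times, and MYCTH_82772 was the exception.

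The lower genes with the most reads were led by model 2121175, which matches no locus tag. It had 8411 FPKM on flax, and 4166 and 4202 on oat and triticale. Its gap was 2.00-fold, the nearest to the threshold among the called genes named here. MYCTH_2303328 reached 4252 FPKM on flax, position 10 in that library, and 759 and 522 FPKM on oat and triticale. MYCTH_75296 had 1869, 697 and 587 FPKM in the same order. MYCTH_105482, with 498 FPKM on flax, 92.2 on oat and 48.8 on triticale, overlaps the span of another gene, and the counting is not stated to use strand, so its reads may be shared. MYCTH_75351, a model of 25321 bases, had 126 FPKM on flax, 32.4 on oat and 31.8 on triticale. Together the 5 genes took 2.51% of reads on flax, 0.820% on oat and 0.730% on triticale.

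Values near the threshold show how little separates called from uncalled genes. Just inside on the cereal side was MYCTH_2298276, with 27.7 FPKM on oat, 26.5 on triticale and 12.7 on flax, and just outside was MYCTH_2303045, with 604, 242 and 121 FPKM. Also near the threshold were MYCTH_2312918 inside (119, 136 and 58.8 FPKM) and MYCTH_2305978 outside (173, 223 and 86.0 FPKM). On the flax side MYCTH_2302215 was just inside, with 32.2 FPKM on flax, 15.5 on oat and 3.79 on triticale. MYCTH_2128027 (19.7, 9.39 and 2.01 FPKM) and MYCTH_2309727 (11.4, 5.23 and 1.38 FPKM) were just outside. If the lower bound of the 95% counting interval of both ratios had to reach 2-fold, 181 genes were higher and 227 lower.

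Few members had 3 or fewer reads in every library of their lower side. Of the higher genes, 20 had 3 or fewer reads on flax, and 4 of these had none. Their lower cereal value was at most 12.3 FPKM. Of the lower genes, 5 had 3 or fewer reads on both cereal straws. Genes with so few reads on only 1 cereal straw, such as MYCTH_2125197 with 1 read on oat, are not in this count. At least 10 FPKM in every library of the higher side was found for 211 higher and 317 lower genes.

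The 2 cereal straws differed from each other more in the lower genes than in the higher genes. Of the 279 higher genes, 145 were above triticale on oat and 134 below it, with a median log2 ratio of oat to triticale of 0.03. Oat was at least 2-fold above triticale in 19 and triticale at least 2-fold above oat in 7. Among all 8205 compared genes these numbers were 1168 and 28. Of the 369 lower genes, 300 (81.3%) were higher on oat than on triticale, with a median log2 ratio of 0.64. Oat was at least 2-fold above triticale in 88 and triticale at least 2-fold above oat in 2. Over all compared genes 60.9% were higher on oat and the median log2 ratio was 0.19, so the lower set leans to oat beyond the background and the higher set does not. Both sets were chosen with these 2 libraries, and triticale lay lower against flax over all compared genes, so the figures are a description. How far the rule alone gives such a lean was not tested.

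The sets also differed in gene length. The median length was 1350 bases for the higher genes and 1877 for the lower genes, against 1797 for all compared genes. In the quartile of shortest genes, up to 1233 bases, 6.23% were higher and 3.85% lower. In the quartile of longest genes, from 2498 bases, 1.02% were higher and 3.95% lower. The share of higher genes thus declined with length, while that of lower genes was largest, at 5.75%, in the third quartile. The ratio of triticale to flax has a trend with length of its own, and its part in these shares was not tested. With the length trends removed the total counts were 325 higher and 307 lower, which do not show the shares by length. By expression level, 5.07% of the quartile with the highest mean FPKM were higher and 3.95% lower, and in the lowest quartile 3.27% and 5.12%.

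The canola library was not used to choose the genes, and it shows where another straw, at a later time, falls for the same genes. Of the 279 higher genes, 152 (54.5%, 95% exact binomial interval 48.4 to 60.4) were at least 2-fold above flax on canola too, against 7.73% of all compared genes. Of the 369 lower genes, 123 (33.3%, 28.5 to 38.4) were at least 2-fold below flax on canola, against 3.51% of all compared genes. These shares use the same flax library as the rule, so a flax value that is off by itself enters both. Their intervals treat genes as independent, which genes are not, and leave out differences between cultures. Seen from the other side, canola was at least 2-fold below both cereal straws in 90 (32.3%) of the higher genes, against 1.62% of all compared genes, and at least 2-fold above both in 150 (40.7%) of the lower genes, against 6.14%. Those shares use the same cereal libraries as the rule. For canola, straw and time of culture cannot be told apart.

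Most genes took an intermediate value on canola. In the higher set, canola lay between flax and the nearer cereal straw in 155 genes, at or beyond the nearer cereal straw in 94 and beyond flax in 30. These are 55.6%, 33.7% and 10.8% of the set, against 10.2%, 65.0% and 52.2% of all compared genes, where the positions can overlap. In the lower set the numbers were 228, 62 and 79, or 61.8%, 16.8% and 21.4%, against 13.8%, 57.4% and 47.8% of all compared genes. Canola was nearer to flax than to the nearer cereal straw, on the log2 scale, in 38.7% of the higher genes, against 59.96% of all compared genes. For the lower genes that share was 55.0%, near the 53.2% of all compared genes. The rule sets flax and the nearer cereal straw at least 2-fold apart in called genes, and most compared genes lack such a gap. The contrasts of these positions with all compared genes therefore follow in part from the rule. The median log2 ratio of canola to flax was 1.15 in the higher set, -0.59 in the lower set and -0.02 over all compared genes.

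**Figure D4:**
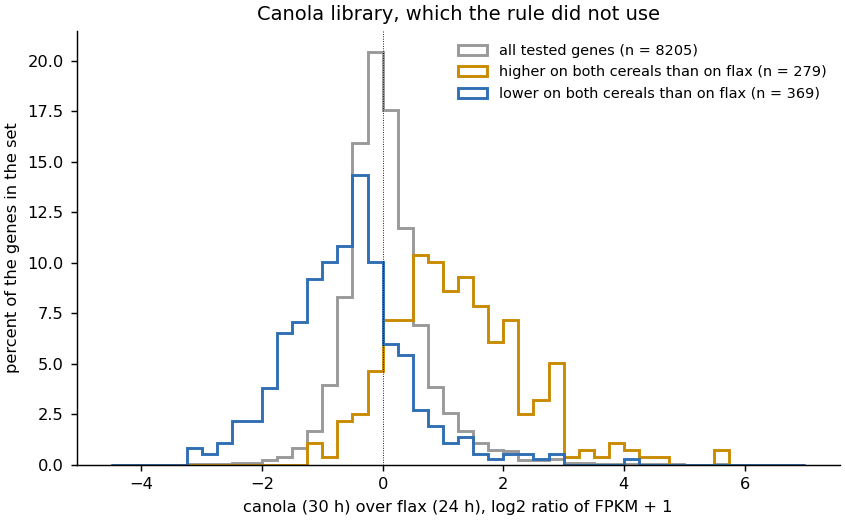
Distribution of the log2 ratio of canola (30 h) to flax (24 h), of FPKM + 1, for all 8205 compared genes, the 279 genes higher and the 369 genes lower on both cereal straws, each as a percent of its set in steps of 0.25. The higher set is shifted to the right, with a median of 1.15, and the lower set to the left, with a median of -0.59, and both overlap the peak of all genes near 0.

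The widest genes differed in their canola values. Of the 12 on the cereal side, canola was at least 2-fold below both cereal straws in 11. Counted separately, it was at least 2-fold above flax in 9 of the 12, with MYCTH_2309660 among these 9 but not among the 11. MYCTH_54058, for example, had 23.8 FPKM on canola, 5.47 times flax (4.0 to 7.64), and MYCTH_55982 had 58.8, 4.91 times flax (3.92 to 6.21). MYCTH_39279 had 1.61 FPKM on canola (0.858 to 2.76), within counting error of flax (ratio 0.648, 0.296 to 1.37). MYCTH_2309660 had 318 FPKM on canola, between oat and triticale, and so was low on flax alone. MYCTH_85556, whose gap of 16.3-fold lies just short of these 12, had 171 FPKM on canola, 0.804 times flax (0.75 to 0.861).

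On the flax side canola was at least 2-fold below flax in 11 of the 12 widest genes. The exception was MYCTH_112322, with 233 FPKM on canola, 0.916 times flax (0.876 to 0.959). For cat1 canola had 25.6 FPKM, above both cereal straws and 5.29 times below flax (4.84 to 5.79), and for phy1 it had 8.76 FPKM, nearer to flax. For cbdA canola had 267 FPKM, 2.24 times flax (2.15 to 2.34) and below both cereal straws.

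Some called genes lay outside the range of the 24 h libraries on canola. MYCTH_87219 had 3845 FPKM on canola, position 10, against 896 on oat, 1136 on triticale and 401 on flax. MYCTH_2314555 had 278 FPKM on canola, 93.6 on oat, 86.6 on triticale and 4.50 on flax, and MYCTH_103070 had 42.9, 13.3, 13.0 and 5.80. In these genes flax was the low end of the series and canola the high end. In the opposite way MYCTH_79765 had 60.3 FPKM on canola, 132 on flax, 473 on oat and 535 on triticale, and MYCTH_2068307 and MYCTH_91276 were also more than 2-fold lower on canola than on flax. Among the lower genes MYCTH_64095 had 211 FPKM on canola, 10.7 on flax, 2.47 on oat and 0.960 on triticale. MYCTH_52713 had 485, 79.5, 21.5 and 4.89 FPKM in the same order, and MYCTH_2308415 had 157, 22.4, 9.34 and 3.58. For these genes the flax value was high only beside the cereal straws. MYCTH_39233 was the reverse, with 7.24 FPKM on canola, 62.7 on flax, 23.4 on oat and 29.4 on triticale.

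Called genes often lay next to each other in the genome, a property the rule did not use. In RefSeq gene order, 63 of the 277 higher genes with a locus tag (22.7%) had a neighbouring model that was also higher, against 5.68% of all compared genes with a locus tag. Of the 367 lower genes with a locus tag, 109 (29.7%) had a neighbouring lower gene, against 7.56% of all compared genes. The higher genes formed 24 adjacent pairs and 4 runs of 3 or more genes (15 genes in all), and the lower genes 32 pairs and 12 runs of 3 or more (45 genes). Spans that overlap another gene were no more frequent in the called sets as a whole, with 3.23% of the higher, 4.34% of the lower and 5.34% of all compared genes. These shares are for the whole sets, not for the genes with a called neighbour. Whether neighbours are near-identical copies that share reads was not checked.

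The longest run held 7 genes that were all lower on the cereal straws: MYCTH_2064854, MYCTH_82782, MYCTH_11658, MYCTH_108317, MYCTH_69746, MYCTH_82772 and MYCTH_108314. It contained 6 of the 12 widest genes on the flax side. The 7 genes took 0.549% of reads on flax, 0.0527% on oat, 0.0435% on triticale and 0.0867% on canola. Flax exceeded the higher cereal straw by 3.40 times in MYCTH_108314 (95.9 FPKM on flax, 28.2 on oat, 27.9 on triticale) to 25.4 times in MYCTH_108317. No span of the 7 overlaps another gene. The models on either side did not take part, with 7.44 FPKM on flax, 7.32 on oat and 5.52 on triticale in MYCTH_2306185 and 12.7, 10.6 and 16 in MYCTH_2127750. On canola all 7 genes were below flax, by 3.20 times (MYCTH_2064854) to 9.40 times (MYCTH_82772).

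A run of 5 genes had the same direction at a lower level. It held MYCTH_2140533, MYCTH_2310379, MYCTH_109870, MYCTH_2096317 and MYCTH_2316248, with 30.8 to 117 FPKM on flax, 3.41 to 14.8 on oat, 1.59 to 8.22 on triticale and 7.67 to 30.9 on canola. Flax exceeded the higher cereal straw by 4.69 to 9.03 times. In a run of 4 genes, MYCTH_2307610, MYCTH_53224, MYCTH_81869 and MYCTH_102290, flax was higher by 2.17 to 2.80 times, and canola was far above flax in MYCTH_81869 (292 against 53.1 FPKM) and MYCTH_102290 (92.1 against 32.6 FPKM). MYCTH_75351 lay in a run of 3 with MYCTH_61507 (328 FPKM on flax, 108 on oat, 78.9 on triticale) and MYCTH_2311234, and these 3 took 0.528% of reads on flax and 0.151% on oat.

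On the cereal side the longest run held 6 genes, MYCTH_2128527, MYCTH_94532, MYCTH_2128529, MYCTH_51839, MYCTH_2307822 and MYCTH_52469. Their levels ranged from 4.89 to 166 FPKM on oat, 6.37 to 260 on triticale and 0.440 to 49.6 on flax, and the lower cereal value was 3.36 to 11.1 times flax. MYCTH_52469 had 178 FPKM on canola, close to the cereal straws, whereas MYCTH_2128529 had 1.02, close to its flax value of 1.32. The genes of the run thus did not share their canola pattern. The flanking models MYCTH_88195 (46.0 FPKM on oat, 61.7 on triticale, 57.0 on flax) and MYCTH_2307824 (23.1, 32.5 and 34.6) were not called.

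**Figure D5:**
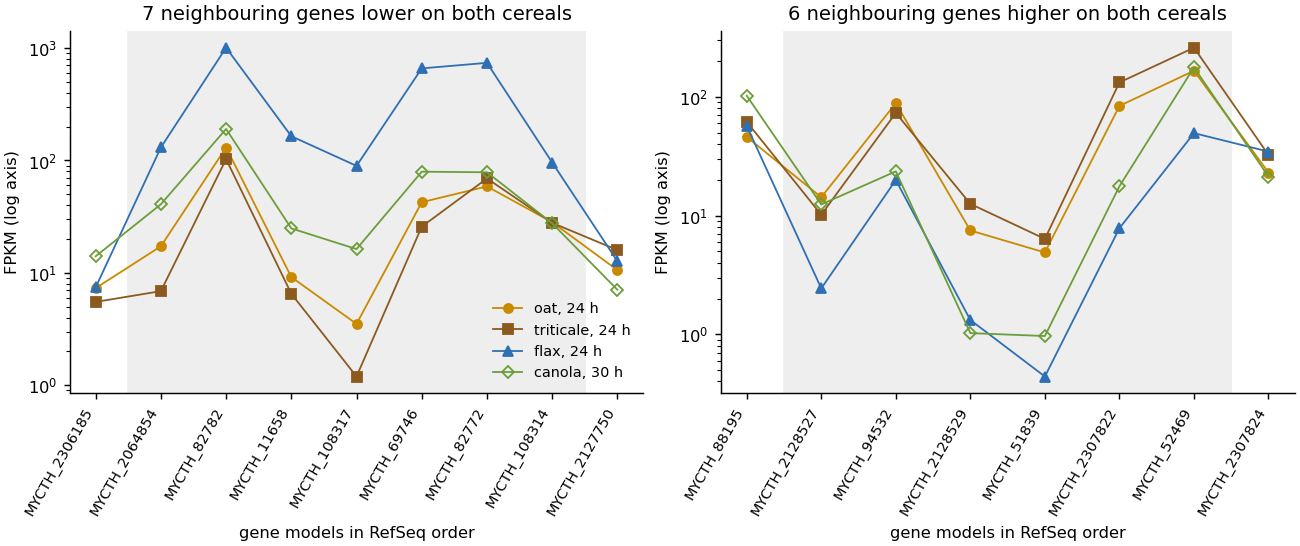
FPKM (log axis) in the 4 libraries for the longest run of neighbouring called genes in each direction, in RefSeq order, with 1 flanking model on each side outside the grey area. Lines join the values of 1 library and are not a trend. Inside the grey area flax lies above the other libraries on the left and below both cereal straws on the right, and outside it the 24 h libraries come together.

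Of the widest and most-read genes on the cereal side, only MYCTH_54058 and MYCTH_85556 lay in runs of 3 or more. MYCTH_54058 stood in a run of 3 with MYCTH_10713 (48.9 FPKM on oat, 36.1 on triticale, 5.03 on flax) and MYCTH_2309651 (36.4, 34.0 and 6.41). MYCTH_85556 stood between MYCTH_58125 (12.4, 12 and 4.21 FPKM) and MYCTH_2311323 (7.10, 5.27 and 0.555), the last with 8 reads on flax. A run of MYCTH_2302949, MYCTH_48379 and MYCTH_2019739 included a gene with no reads on flax, MYCTH_48379, which had 17 reads on oat and 7 on triticale. MYCTH_2019739 had 68.1 FPKM on oat, 42.9 on triticale and 14.8 on flax. In the runs of MYCTH_54058 and MYCTH_85556 the abundant gene lay beside genes at much lower levels, whereas no gene of the run of MYCTH_2019739 exceeded 68.1 FPKM on oat.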

How the data were processed

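Poly(A) RNA of 4 cultures (oat, triticale, flax and canola straw, 1 library each) was measured with an Illumina mRNA-Seq kit, per the labels. The authors deposited FPKM values and gene model lengths for 9110 models. Aligner, counter, reference build and gene annotation were not given in the sources used here. FPKM times length gave whole reads for 100% of values (tolerance 0.001 reads), so reads per gene and library totals were recovered. Intervals (95%, exact Poisson for a value and Clopper-Pearson for a ratio) cover counting error only, and PCR copies are not independent molecules. The interval of a share (95%, Clopper-Pearson) treats genes as independent, which genes are not, and holds no counting error of reads. The limit that a count of 0 allows was set at 3 reads.

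Models with a mean of at least 1 FPKM over oat, triticale and flax (8205, with 905 left out) were set against each other on the log2(FPKM + 1) scale, where the differences of low genes look smaller than they are. The rule asked for 2-fold on both cereal straws against flax. With 1 library per straw no test was made, and the rule was tested on simulated data. Model numbers were matched to RefSeq locus tags (assembly ASM22609v1, 9087 matched, 9075 with the same length as the gene span) for names and gene order only, and no positions are given. Introns count in these lengths. The gene lists defined by product text or protein patterns, and the promoter motifs, could not be evaluated, since no such text or sequence was used here. The genes named are the 12 widest and the 5 with the most reads in each direction, and genes close to the threshold. Also named are those farthest outside the range on canola, runs of 3 or more neighbours and all genes with a symbol. The genes, lists and rule were chosen with earlier results of these data known. Alternatives were other pseudocounts, filters, scalings, trend removal (lowess, fraction 0.3) and each cereal straw alone. Python 3.11.15, numpy 2.4.6, pandas 2.3.3, scipy 1.17.1, statsmodels 0.14.6 and matplotlib 3.10.9 were used.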

Additional observations from a re-analysis of the deposited data

How the results depend on the processing

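The main counts, 279 higher and 369 lower genes, stayed within 1.5 times with a pseudocount of 0.1, no filter, a filter at a mean of 10 FPKM, median centring, upper-quartile scaling and removal of either trend or both. They were 131 and 150 with a pseudocount of 10, 74 and 53 at 4-fold, and 181 and 227 when the lower counting bound had to reach 2-fold. Oat alone against flax gave 430 higher genes, and triticale alone gave 437 higher and 1802 lower. With one cereal straw fewer to clear, these counts can only stay or grow. With both trends removed, 264 of the 279 higher and 288 of the 369 lower genes were still called. Leaving out models that match no locus tag, differ in length or overlap another gene, an alternative chosen after seeing the data, left 266 and 351. Asking for 10 FPKM on the higher side, also chosen after seeing the data, left 211 and 317. At 4-fold, 1 of the 2 lower symbol genes, cat1, was still called. The canola shares of 54.5% and 33.3% were 54.0% and 35.3% for genes with 10 FPKM on the higher side and 51.9% and 34.6% with median centring. In the order of compared models only, 71 higher and 117 lower genes had a called neighbour, and runs of 3 or more numbered 6 and 13. None of the 99 called genes named by the rule turned its direction under the 6 alternatives run on single genes. A single cereal straw or another pseudocount cannot turn a called gene, and the scalings shift a library by little beside 2-fold. The lack of turns thus follows largely from the rule and is not a check. With a pseudocount of 10, 39 of the 99 genes fell short of 2-fold, against 10 with both trends removed, 8 with median centring and 6 with upper-quartile scaling. No paired analysis was possible because each straw has 1 library. Depth limits genes of a few FPKM, such as phy1 on the cereal straws, and genes below 1 FPKM, such as lcc1. The missing replicates limit all comparisons.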
